A study of Mus musculus with 20 samples.

Results

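The RelA knock-in was compared with its control 3 h after an inflammatory stimulus in 6 RNA-seq libraries, chosen by genotype and time from the 20 libraries of the series. Of these, 3 came from control cells and 3 from knock-in cells, and each genotype had 1 library for each of 3 agents, so that the libraries form 3 pairs, an IL-1b pair, an LPS pair and a TNF pair. The cells were primary embryonic fibroblasts of C57BL/6 mice, that is, stromal cells cultured directly from embryos. Control cells were crel-/- and so made no c-Rel, an NF-kB subunit whose gene is Rel. Knock-in cells lacked c-Rel as well and carried in addition an altered Rela gene, RelA-TA-KI. The labels leave TA unexplained and name no altered residue. After a night in medium with little serum, cells received interleukin 1 beta (IL-1b) or tumour necrosis factor (TNF) at 10 ng/ml, or bacterial lipopolysaccharide (LPS) at 100 ng/ml. The remaining libraries, from unstimulated cells (0 h) and from 0.5 and 1 h, were used here to set the 3 h difference beside the earlier ones. The comparison asks which genes differed late in the response between cells with unaltered and with altered RelA, both in a background without c-Rel.

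NF-kB is a family of dimeric transcription factors held in the cytoplasm by IkB proteins. IL-1b, LPS and TNF each activate the IkB kinase, which leads to breakdown of IkB and lets RelA dimers enter the nucleus and activate genes for chemokines, cytokines, adhesion molecules and the IkB proteins themselves. RelA contacts DNA through its Rel homology region and drives transcription through transactivation domains near its end, and c-Rel is a related subunit with a similar layout. LPS, unlike the other agents, also signals through TRIF to interferon regulatory factors, which switch on interferon beta and interferon-stimulated genes.

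Each genotype, agent and time had 1 library, and nothing in the labels says that libraries came from separate cultures or embryos. P-values therefore measure only the spread between these libraries, which may be technical in part. In the test over the 3 pairs, that spread is the disagreement between agents in the genotype difference. A gene with large but unequal differences can therefore have a high p-value. An effect of the allele cannot be told apart from a difference between the control and the knock-in culture. The 6 libraries held 9550464 to 12574135 counts, and a floor of 3 counts in a library corresponded to 0.239 to 0.435 CPM, the unit used throughout for counts scaled to library size and composition. Both LPS libraries stood apart in composition, with scaling factors of 0.723 and 0.732 against 0.979 to 1.01 in the IL-1b and TNF libraries. Fibroblast markers were high in all 6, Col1a1 lying between 20200 and 28810 CPM, Prrx1 between 564 and 701 CPM and Pdgfra between 197 and 632 CPM. Macrophage markers were also present in every library, none of 17 being at 0, with a sum of 3985, 4500 and 6026 CPM in crel-/- and 3269, 3150 and 5715 CPM in knock-in cells (IL-1b, LPS and TNF, the order used for all triplets of values). Their part in the results was not tested. In these bulk libraries, fewer cells of a type and less RNA per cell cannot be told apart.

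The altered gene was measured first. Rela was at 148, 354 and 205 CPM in crel-/- and at 104, 196 and 161 CPM in knock-in libraries, lower in the knock-in library of each pair. The fitted difference was -0.57 (SE 0.11, adjusted p = 0.0461), knock-in minus crel-/- on the log2 scale, by edgeR's quasi-likelihood test over the 3 pairs with adjustment over all 13301 genes tested. Without any 1 of the pairs it missed the threshold of 0.05. Rel was at 36.4, 62.0 and 24.8 CPM in crel-/- and at 25.0, 34.9 and 21.0 CPM in knock-in cells, a difference of -0.54 (SE 0.13, adjusted p = 0.0828). A gene-level count does not show which residues of Rela were changed or which part of Rel was removed, so these values check neither allele. Among genes within 5 Mb of Rela, 7 of 183 passed the same test (3.83%), against 4.98% of all genes.

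Of the 13301 genes, 368 were lower in knock-in cells (2.77%) and 294 were higher (2.21%) at an adjusted p under 0.05. The lower genes differed more, with a median of -0.98 on the log2 scale against 0.78 for the higher ones, and 181 of the lower but 86 of the higher genes differed by at least 2-fold. At an unadjusted p under 0.05, 1365 genes were lower and 1299 were higher. These calls rest on the pairing of libraries by agent: with genotype alone in the model, edgeR called 3 genes lower and 0 higher, and 372 and 332 at an unadjusted p under 0.05. They also rest on the number of pairs, since 354 genes were called lower and 289 higher without the IL-1b pair, 210 and 83 without the LPS pair, and 125 and 35 without the TNF pair.

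**Figure D1:**
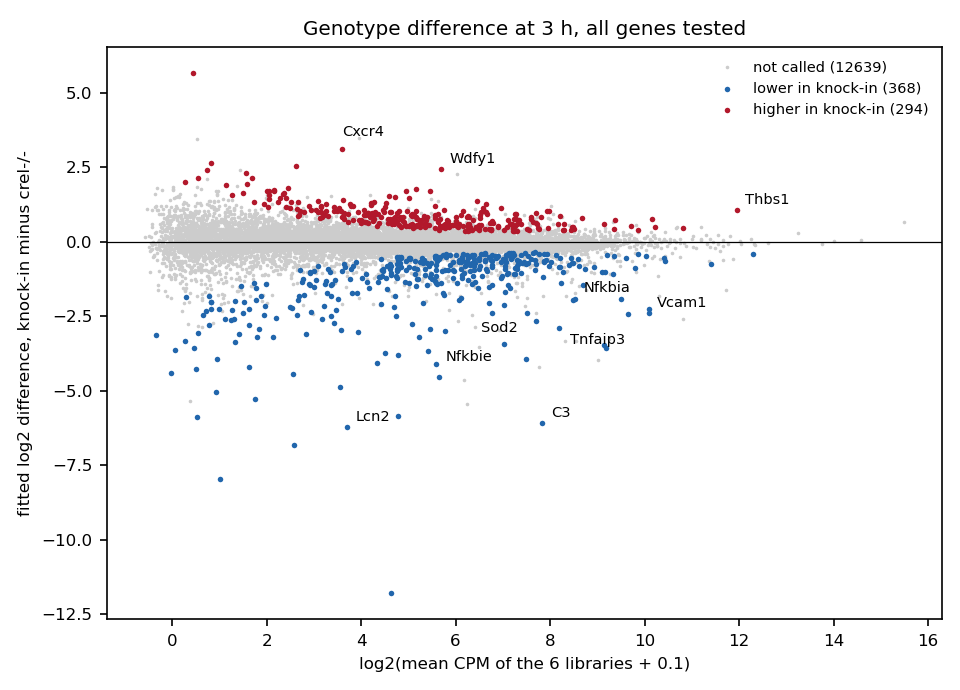
Fitted genotype difference at 3 h (log2, knock-in minus crel-/-) against mean level (log2 of mean CPM of the 6 libraries + 0.1) for 13301 genes, 1 point a gene, with the 368 genes called lower in blue and the 294 called higher in red. The lower genes reach further from 0 than the higher ones, and fitted values of genes with almost no counts in a genotype depend on the prior count and are no measure of size.

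Within single pairs, which have 1 library a genotype and no test, genes past a 2-fold difference were counted (log2 CPM with a prior count of 2). The IL-1b pair had 633 genes lower (4.76%) and 335 higher (2.52%) in the knock-in library. The LPS pair had 556 lower (4.18%) and 383 higher (2.88%), and the TNF pair had 512 lower (3.85%) and 327 higher (2.46%). A common core was lower by at least 2-fold in all 3 pairs, 164 genes (1.23%), and made up 25.9% of the IL-1b list, 29.5% of the LPS list and 32.0% of the TNF list. For the opposite direction the common core held 45 genes (0.338%), 13.4%, 11.8% and 13.8% of the respective lists. In this core 123 of the lower genes and 34 of the higher genes also passed the test over the pairs. Across the 13301 genes, which are not independent replicates, the differences of the IL-1b and LPS pairs had a Pearson r of 0.50, those of IL-1b and TNF 0.51 and those of LPS and TNF 0.55, as a description only.

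Genes of the pathway itself were lower in knock-in cells. In a list of 28 NF-kB regulators, 16 members fell, none rose, and the median difference was -1.32, against 0.00 for all genes tested. All 28 lay lower in the knock-in library of the IL-1b pair and of the LPS pair, and 26 in that of the TNF pair. Over all genes tested these shares were 50.93%, 48.35% and 49.47% in the 3 pairs. For this and the later lists, 2.77% of all genes tested were called lower and 2.21% higher. Here and below, fell and rose mean called lower and called higher in knock-in than in crel-/- cells at 3 h, not a change over time. Of the 16, 14 remained called without the IL-1b pair, 11 without the LPS pair and 6 without the TNF pair.

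Tnfaip3 (chr10:19000910-19015657, mm10), which encodes A20, a ubiquitin-editing enzyme that shuts off the IkB kinase, was at 93.6, 1189 and 244 CPM in crel-/- and at 11.5, 184 and 31.7 CPM in knock-in cells. The groups overlapped, since the knock-in LPS library lay above the crel-/- IL-1b library, but within every pair the knock-in library was the lower. Here and below, overlap between the 3 crel-/- and 3 knock-in libraries only describes single genes. Its share over all genes is not given. The fitted difference was -2.88 (SE 0.10, adjusted p = 0.000653), and it stayed called when any 1 pair was left out. Nfkbia (chr12:55489411-55492647), the gene for IkB alpha, was at 320.3, 814 and 564 CPM in crel-/- and 71.0, 240.2 and 146 CPM in knock-in cells, with no overlap and a difference of -1.96 (SE 0.10, adjusted p = 0.00287), also called with any 1 pair left out. Nfkbie, for IkB epsilon, was at 97.1, 326 and 292 CPM and 12.4, 23.8 and 25.4 CPM, a difference of -3.43 (SE 0.17, adjusted p = 0.00387). In knock-in cells all 3 genes were above their 0 h levels (6.53, 22.7 and 6.45 CPM) in each 3 h library, and at 0 h the crel-/- library stood at 9.27, 28.9 and 9.11 CPM.

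Of the NF-kB subunit genes, Nfkb1, Nfkb2 and Relb were also lower in knock-in cells. Nfkb1, for the p105 precursor of p50, was at 445, 995 and 386 CPM in crel-/- and 145, 334 and 172 CPM in knock-in cells, a difference of -1.45 (SE 0.11, adjusted p = 0.00496). Nfkb2, for the precursor of p52, differed by -1.40 (SE 0.16, adjusted p = 0.0197) and Relb, its usual partner, by -1.68 (SE 0.21, adjusted p = 0.029). The nuclear IkB gene Bcl3 differed by -1.34 (SE 0.11, adjusted p = 0.00524). In contrast, Nfkbiz, another nuclear IkB gene, was at 200.4, 729 and 31.5 CPM in crel-/- and 80.9, 530.4 and 54.7 CPM in knock-in cells, lower in the IL-1b and LPS pairs and higher in the TNF pair, and did not pass the test (adjusted p = 0.759). Nfkbid did not pass it either, with differences of -0.32, -0.23 and 0.43.

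Among signalling genes, Birc3 and Birc2, for the ubiquitin ligases cIAP2 and cIAP1, differed by -1.46 (SE 0.11, adjusted p = 0.00496) and -1.29 (SE 0.10, adjusted p = 0.00524). Traf2, which binds them at the TNF receptor, differed by -0.69 (SE 0.09, adjusted p = 0.0183), and Cyld, a deubiquitinase that limits the pathway, by -0.68 (SE 0.09, adjusted p = 0.0198). Tnip1, an A20 partner, differed by -2.11 (SE 0.29, adjusted p = 0.0453), Irak3, a brake on IL-1 and Toll-like receptor signalling, by -1.22 (SE 0.16, adjusted p = 0.0198), Ikbke by -1.40 (SE 0.19, adjusted p = 0.0292) and Map3k8, the kinase Tpl2, by -0.63 (SE 0.12, adjusted p = 0.0463). Map3k8 was no longer called when any 1 pair was left out, while Birc2, Birc3, Nfkb1 and Bcl3 kept their calls without each. Ripk2, the kinase downstream of NOD receptors, missed the threshold, with 379, 897 and 378 CPM in crel-/- against 24.5, 216 and 23.1 CPM in knock-in cells (adjusted p = 0.0713). Its groups did not overlap, but its difference was smaller under LPS (-3.94, -2.05 and -4.02).

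**Figure D2:**
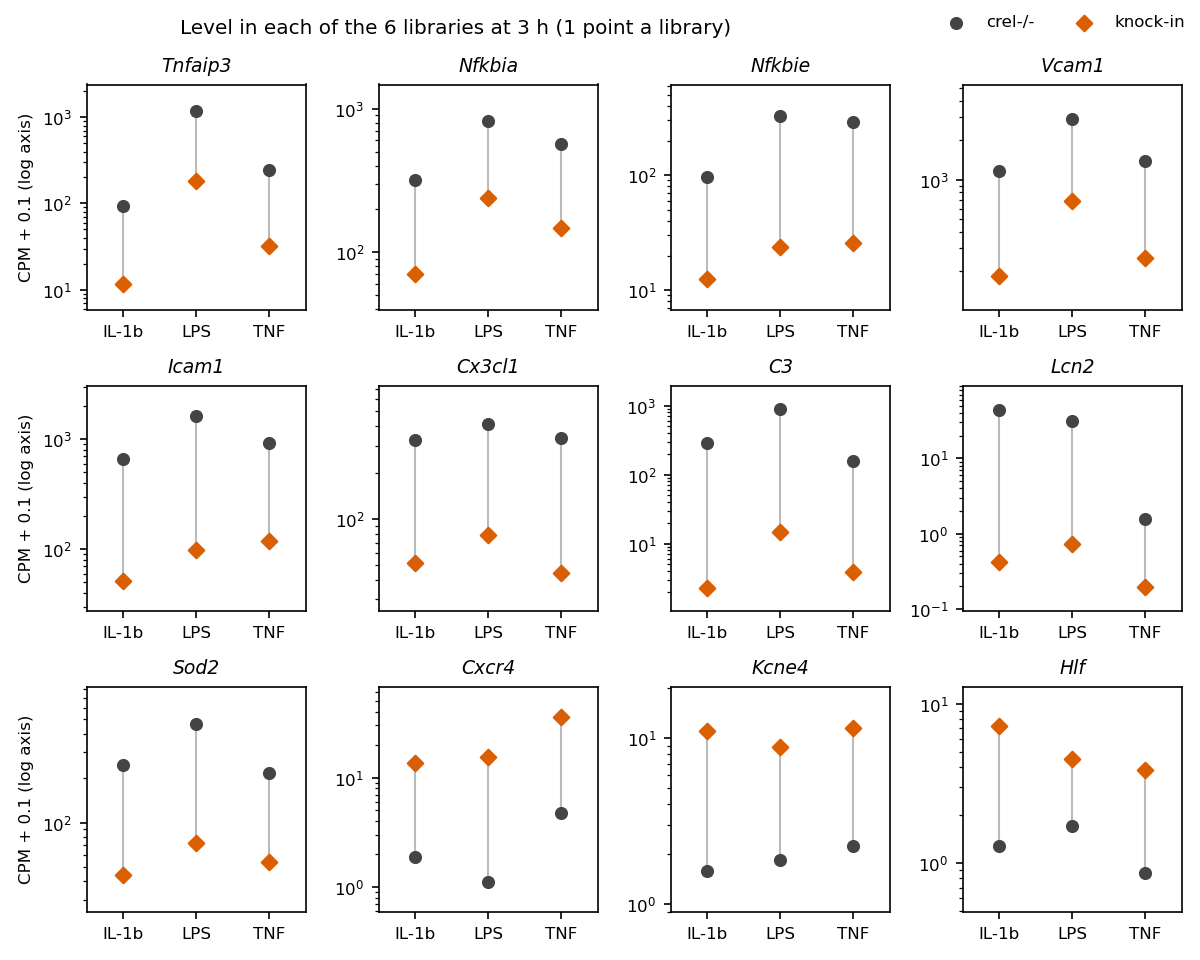
Level of 12 genes in each of the 6 libraries at 3 h (CPM + 0.1, log axis), crel-/- as grey circles and knock-in as orange diamonds, joined within an agent pair, 1 point a library. Tnfaip3, Nfkbia, Nfkbie, Vcam1, Icam1, Cx3cl1, C3, Lcn2 and Sod2 lie lower and Cxcr4, Kcne4 and Hlf lie higher in the knock-in library of each pair.

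Large differences were found in acute phase and innate effector genes. Saa3 (chr7:46711998-46715676), a serum amyloid A gene, was at 35.6, 103 and 10.2 CPM in crel-/- libraries and had 0 counts in all 3 knock-in libraries, against 1192 counts in crel-/-. It was therefore at least 428-fold lower in knock-in cells, taking 3 counts over the group as the floor, and it was called (adjusted p = 0.00407). Chil1 (chr1:134182176-134190181), for a secreted chitinase-like protein, had 336 counts in crel-/- and 3 in knock-in cells, a ratio of 121 with a 95% counting interval of 40.9 to 588 (adjusted p = 0.0031). Lcn2, for the iron-trapping protein lipocalin 2, was at 44.0, 31.0 and 1.46 CPM in crel-/- and at 0.319, 0.625 and 0.0960 CPM in knock-in cells, a difference of -6.23 (SE 0.35, adjusted p = 0.0031). Its crel-/- level under TNF was far below that under IL-1b and LPS, and the 17 counts there against 1 in the knock-in library gave a ratio of 15.2 (95% counting interval 2.38 to 634).

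C3 (chr17:57203970-57228136), the central complement component, was at 291, 904 and 158 CPM in crel-/- and at 2.15, 14.5 and 3.84 CPM in knock-in libraries. All crel-/- values lay above all knock-in values, and the difference was -6.09 (SE 0.36, adjusted p = 0.00988). It also differed before stimulation, at 12.0 CPM in crel-/- and 2.97 CPM in knock-in cells at 0 h. Its call was lost without the TNF pair, where the C3 difference was -6.42 (adjusted p = 0.0539).

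Over the list of 28 acute phase and innate effector genes, 25 were tested, 9 fell and none rose, with a median of -1.77. Of these 25, 13 were at least 2-fold lower in all 3 pairs, against 1.23% of all genes tested. Steap4, a metalloreductase, was at 428, 489 and 82.6 CPM in crel-/- and 19.2, 49.6 and 4.61 CPM in knock-in cells (log2 difference -3.95, SE 0.28, adjusted p = 0.0117). Ptx3, for the soluble pattern receptor pentraxin 3, was at 1078, 2005 and 956 CPM in crel-/- and 158, 449 and 184 CPM in knock-in cells (log2 difference -2.44, SE 0.13, adjusted p = 0.0031), and Sod2, the mitochondrial superoxide dismutase, at 246, 465 and 216 CPM in crel-/- and 44.1, 72.9 and 53.5 CPM in knock-in cells (log2 difference -2.39, SE 0.14, adjusted p = 0.00407). Neither gene's groups overlapped, and both kept their calls without any 1 pair. The other called members were Hp (-3.94), for haptoglobin, Ptges (-2.06), for a prostaglandin E synthase, and C1ra (-0.94), a complement protease gene. Nos2, the inducible nitric oxide synthase, was at 57.9, 378 and 4.28 CPM in crel-/- and 0, 14.3 and 0 CPM in knock-in cells and narrowly missed the threshold (adjusted p = 0.0535). It had 0 counts in 2 knock-in libraries, which put it at least 242-fold lower under IL-1b and at least 14.9-fold lower under TNF. Of the 9 called members, 8 remained called without the IL-1b pair, 8 without the LPS pair and 5 without the TNF pair.

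The common lower core held further genes of various kinds. Gpr84, a receptor for medium-chain fatty acids, was at 5.41, 66.8 and 89.6 CPM in crel-/- and 0, 0 and 2.78 CPM in knock-in cells, with 0 counts in the knock-in IL-1b and LPS libraries (adjusted p = 0.034). It was at least 178-fold lower in the LPS pair and at least 22.6-fold lower in the IL-1b pair. Icosl, the ligand of the T-cell costimulator ICOS, was at 84.9, 97.5 and 90.4 CPM in crel-/- and 3.83, 6.25 and 6.14 CPM in knock-in cells, a nearly equal difference in each pair (-4.41, -3.92 and -3.84), fitted at -4.10 (SE 0.14, adjusted p = 0.000653). At 0 h both genotypes stood alike, at 4.43 and 4.67 CPM. Cilp2, an extracellular matrix gene, was at 30.6, 41.3 and 42.5 CPM in crel-/- and 2.15, 2.38 and 2.21 CPM in knock-in cells (log2 difference -4.06, SE 0.15, adjusted p = 0.000653). Spib, for an Ets-family transcription factor, was at 6.39, 7.39 and 19.4 CPM in crel-/- and below 1 CPM in each knock-in library (adjusted p = 0.0108). The predicted gene Gm16685 was at 64.0, 149.7 and 20.04 CPM in crel-/- and 3.91, 16.6 and 1.06 CPM in knock-in cells (log2 difference -3.65, SE 0.22, adjusted p = 0.00496). H2-M2, a nonclassical MHC class I gene, was called (adjusted p = 0.00667) on the LPS and TNF pairs, with 84 counts against 1 and 81 against 3, while the crel-/- IL-1b library was at 0.197 CPM, under the floor.

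Because RelA acts through DNA, promoters of the genes with the largest or most even differences were read from RefSeq (build GRCm38.p6, 250 bases before to 50 after the annotated start, gene strand). The 10-letter NF-kB consensus was searched on both strands, and matches are shown in capitals. It occurred in 1 place in the windows of Chil1, Ccl20, Nfkbia and Nfkbie and in 2 places in that of Tnfaip3, the last 3 genes being added after their values were seen. The windows are Chil1 chr1:134181906-134182205, plus strand; Ccl20 chr1:83116516-83116815, plus strand; Nfkbia chr12:55492598-55492897, minus strand; Nfkbie chr17:45555450-45555749, plus strand; and Tnfaip3 chr10:19015361-19015660, minus strand, whose annotated start lies 247 bases from the end of the gene in the deposited table. They are shown because all 5 genes were called lower in knock-in cells and hold a match near the start.
Chil1: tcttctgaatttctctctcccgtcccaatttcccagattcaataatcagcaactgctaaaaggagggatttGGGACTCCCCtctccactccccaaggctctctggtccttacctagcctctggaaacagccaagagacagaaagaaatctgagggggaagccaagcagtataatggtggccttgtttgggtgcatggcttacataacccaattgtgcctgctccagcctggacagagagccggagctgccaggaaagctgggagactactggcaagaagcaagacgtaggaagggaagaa
Ccl20: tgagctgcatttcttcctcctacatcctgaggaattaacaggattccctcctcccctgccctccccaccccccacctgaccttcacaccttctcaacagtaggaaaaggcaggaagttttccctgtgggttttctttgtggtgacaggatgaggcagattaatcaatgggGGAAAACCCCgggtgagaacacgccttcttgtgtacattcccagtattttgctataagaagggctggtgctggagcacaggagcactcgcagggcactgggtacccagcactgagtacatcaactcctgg
Nfkbia: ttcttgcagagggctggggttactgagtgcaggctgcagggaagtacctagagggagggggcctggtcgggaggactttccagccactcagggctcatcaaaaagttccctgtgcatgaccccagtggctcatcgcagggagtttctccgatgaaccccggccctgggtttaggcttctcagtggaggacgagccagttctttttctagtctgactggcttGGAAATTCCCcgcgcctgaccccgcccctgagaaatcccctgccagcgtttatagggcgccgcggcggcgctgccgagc
Nfkbie: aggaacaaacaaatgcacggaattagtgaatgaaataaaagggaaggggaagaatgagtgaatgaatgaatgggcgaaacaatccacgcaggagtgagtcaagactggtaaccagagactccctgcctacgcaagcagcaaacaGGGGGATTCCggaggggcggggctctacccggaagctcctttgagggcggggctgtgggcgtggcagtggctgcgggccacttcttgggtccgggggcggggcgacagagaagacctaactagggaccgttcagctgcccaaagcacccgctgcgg
Tnfaip3: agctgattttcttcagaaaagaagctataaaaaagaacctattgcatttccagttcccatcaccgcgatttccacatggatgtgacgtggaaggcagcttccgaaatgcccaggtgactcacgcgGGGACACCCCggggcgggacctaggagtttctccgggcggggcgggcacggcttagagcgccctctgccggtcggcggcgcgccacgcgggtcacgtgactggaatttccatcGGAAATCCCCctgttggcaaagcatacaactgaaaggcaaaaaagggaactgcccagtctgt

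The matches begin at -179 in Chil1, -80 in Ccl20, -29 in Nfkbia, -106 in Nfkbie and -125 and -12 in Tnfaip3, counted from the annotated start. The windows of Saa3, C3, Gpr84, Icosl, Icam1 and Cx3cl1 held no match, which says only that these letters do not occur there. Like Nfkbia, Nfkbie and Tnfaip3, Icam1 and Cx3cl1 were added to the genes taken by rank of their difference. Nos2, which was among the ranked genes, and Vcam1 had no window. Over genes with a window, 15.2% of 276 called lower, 6.15% of 195 called higher and 5.43% of all 10237 tested held the consensus. In the common core it was 26.7% of 120 lower and 3.13% of 32 higher genes, and 4.51% of all 32851 windows in the table. These shares are a description and identify no binding site.

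Chemokine genes lay mostly on the lower side in knock-in cells, with the lowest median in the IL-1b pair. Of 22 listed genes 21 were tested and 4 fell, with medians of -2.63 in the IL-1b pair, -0.89 in the LPS pair and -1.11 in the TNF pair, and none rose. Ccl20, which attracts CCR6-bearing lymphocytes, was at 50.3, 144 and 96.2 CPM in crel-/- and 1.28, 4.63 and 6.81 CPM in knock-in cells (log2 difference -4.55, SE 0.30, adjusted p = 0.00848), and kept its call without any 1 pair. Cx3cl1, a membrane-bound chemokine, was at 327, 412 and 338 CPM in crel-/- and 51.3, 78.4 and 44.6 CPM in knock-in cells (log2 difference -2.66, SE 0.12, adjusted p = 0.00168), again called without each pair. Both genes separated the genotypes without overlap. Cxcl5, a neutrophil attractant, differed by -2.25 (SE 0.28, adjusted p = 0.038) and Cxcl12, the ligand of CXCR4, by -0.48 (SE 0.09, adjusted p = 0.0479). The Cxcl5 call was lost without 2 of the pairs and the Cxcl12 call without any 1.

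Other chemokine genes had unequal differences between the agents. Ccl5, a T-cell and monocyte attractant, was at 101, 888 and 104 CPM in crel-/- and 1.196, 212 and 1.54 CPM in knock-in cells, so that differences of -6.20, -2.06 and -5.92 gave an adjusted p of 0.171. Cxcl2, a neutrophil attractant, was at 36.1, 396 and 30.2 CPM in crel-/- and 1.67, 22.4 and 22.8 CPM in knock-in cells, low in the knock-in library under IL-1b and LPS and close to its pair under TNF (adjusted p = 0.276). Cxcl10, an interferon-inducible attractant of T cells, differed by -2.99, -0.41 and -1.52 and Ccl2, a monocyte attractant, by -3.05, -0.91 and -1.59, and neither passed (adjusted p = 0.273 and 0.184). The crel-/- and knock-in libraries were thus nearest to each other under LPS for Ccl5, Cxcl10 and Ccl2 and under TNF for Cxcl2.

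Cytokines and growth factors were mixed. Of 31 listed genes 24 were tested, 5 fell and 1 rose, with a median of -1.23. Of the 5, 4 were kept without the IL-1b pair, 1 without the LPS pair and 4 without the TNF pair. Csf1, the macrophage growth factor, was at 829, 1467 and 1131 CPM in crel-/- and 194, 493 and 262 CPM in knock-in cells (log2 difference -1.92, SE 0.13, adjusted p = 0.00423) and stayed called without any 1 pair. Csf3, the granulocyte growth factor, was at 5.12, 11.9 and 0.0856 CPM in crel-/- and 0.159, 0.625 and 0.0960 CPM in knock-in cells, so its call (adjusted p = 0.0152) rests on IL-1b and LPS. Il1a was at 0, 67.4 and 0.5995 CPM in crel-/- and 0, 2.25 and 0 CPM in knock-in cells, a difference carried by the LPS pair (adjusted p = 0.00621). Il34, a second ligand of the CSF1 receptor, differed by -1.97 (SE 0.30, adjusted p = 0.0286), and Tslp, an epithelial and stromal cytokine that acts on dendritic cells, by -1.94 (SE 0.30, adjusted p = 0.0292).

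The cytokine gene that rose was Ifnb1, for interferon beta. It was at 0, 40.1 and 0.171 CPM in crel-/- and 0, 118 and 0.192 CPM in knock-in cells, so only the LPS libraries held more than a few counts, and there the knock-in library was the higher. The fitted value was 1.505 (SE 0.20, adjusted p = 0.0295), and the gene was not called by DESeq2 or without the TNF pair. Il6, a main cytokine of the acute response, was at 29.2, 339 and 2.14 CPM in crel-/- and 0.399, 183 and 2.69 CPM in knock-in cells, with differences of -5.66, -0.89 and 0.30 (adjusted p = 0.497). Il1b was at 3.05, 670.5 and 10.9 CPM in crel-/- and 0.239, 34.6 and 6.62 CPM in knock-in cells (adjusted p = 0.242) and Tnf at 7.28, 902 and 30.1 CPM in crel-/- and 1.59, 115 and 13.8 CPM in knock-in cells (adjusted p = 0.123), both lower in each knock-in library.

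**Figure D3:**
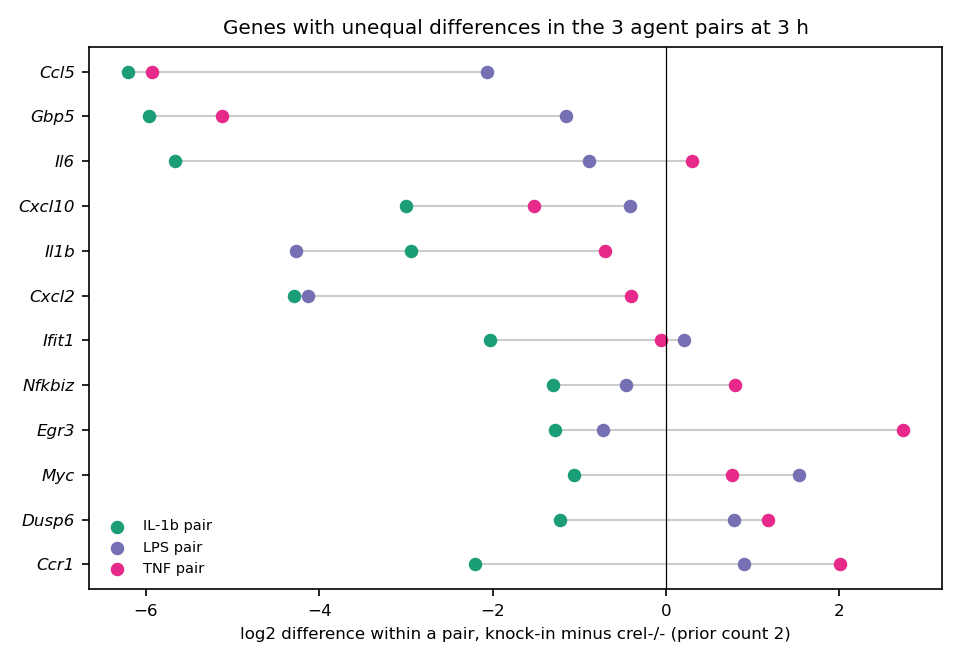
Genotype difference at 3 h within each agent pair (log2, knock-in minus crel-/-, prior count 2) for 12 genes chosen after their values were seen, 1 point a pair, with no test. Ccl5 and Gbp5 lie nearest to 0 in the LPS pair, Cxcl2 and Il1b in the TNF pair, and Egr3, Myc, Dusp6 and Ccr1 lie below 0 in the IL-1b pair and above 0 in the TNF pair.

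Receptor and sensor genes fell in 6 of 26 cases and rose in none, with a median of -0.69. Tlr2, a receptor for bacterial lipopeptides, was at 713, 1778 and 547 CPM in crel-/- and 38.2, 287 and 45.9 CPM in knock-in cells, with no overlap (log2 difference -3.47, SE 0.38, adjusted p = 0.0359). Nod2, a cytoplasmic sensor of muramyl dipeptide, was at 11.02, 54.6 and 14.5 CPM in crel-/- and 1.04, 8.63 and 1.34 CPM in knock-in cells (log2 difference -3.03, SE 0.20, adjusted p = 0.00407) and kept its call without any 1 pair. Fas, a death receptor, differed by -2.38 (SE 0.21, adjusted p = 0.013), Cd40 by -2.20 (SE 0.21, adjusted p = 0.00858) and Il6st, the shared gp130 receptor chain, by -0.66 (SE 0.10, adjusted p = 0.0284). Gpr84 was the sixth. Of these 6 calls, 3 were kept without the IL-1b pair, 5 without the LPS pair and 3 without the TNF pair. Clec4e, a receptor for microbial glycolipids, was at 2.26, 263 and 152 CPM in crel-/- and 0.478, 1.75 and 13.3 CPM in knock-in cells, with unequal differences (-1.89, -7.09 and -3.49) and an adjusted p of 0.114.

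In the list of adhesion and antigen presentation genes, 8 of 23 fell and none rose, with a median of -1.01. Icam1 (chr9:21015960-21028797), a ligand for leukocyte integrins, was at 656, 1622 and 932 CPM in crel-/- and 51.6, 98.4 and 118 CPM in knock-in cells, separated without overlap (log2 difference -3.56, SE 0.24, adjusted p = 0.00851). Vcam1 (chr3:116109949-116129688), which binds the integrin VLA-4, was at 1156, 2892 and 1389 CPM in crel-/- and 185, 687 and 251 CPM in knock-in cells (log2 difference -2.40, SE 0.13, adjusted p = 0.00305), also without overlap. Both kept their calls when any 1 pair was left out, and at 0 h the genotypes were at 34.1 and 28.6 CPM for Icam1 and 116 and 105 CPM for Vcam1.

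H2-K1, a classical MHC class I gene, was at 444, 1013 and 408 CPM in crel-/- and 216, 636 and 226 CPM in knock-in cells (log2 difference -0.86, SE 0.09, adjusted p = 0.0112). Tapbp, for tapasin, differed by -1.01, the related Tapbpl by -1.24, Psme2, a proteasome activator subunit, by -0.65 and Cd47, the don't-eat-me signal, by -0.80. For these 5 genes the LPS pair had the smallest difference, Tapbp for example at -1.23, -0.53 and -1.27. H2-Q6 was called too (-1.72), but reads of near-identical MHC class I copies may have been split in counting. Of the 8 called members, 4 remained called without the IL-1b pair, 6 without the LPS pair and 3 without the TNF pair.

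Interferon-stimulated genes split by agent. None of the 43 members passed edgeR's test, although the median was -0.63. At an unadjusted p under 0.05, 9 were lower and none higher, DESeq2 called 8 lower and limma-voom none. Among all genes, 50.93%, 48.35% and 49.47% were lower in the pairs, and 4.76%, 4.18% and 3.85% by at least 2-fold. In the IL-1b pair all 43 were lower in the knock-in library, 35 of them by at least 2-fold, with a median of -1.47. In the LPS pair 29 were lower, 2 of them by at least 2-fold, and the median was -0.10, and in the TNF pair 33 were lower, 9 by at least 2-fold, and the median was -0.37. Ifit1, an inhibitor of foreign RNA translation, was at 487, 8489 and 288 CPM in crel-/- and 119, 9812 and 278 CPM in knock-in cells, so that it was lower in the IL-1b pair and near equal in the others. Gbp5, a GTPase of antimicrobial defence, was at 191, 1871 and 209 CPM in crel-/- and 2.87, 844 and 5.85 CPM in knock-in cells, and Gbp2 at 657, 4948 and 534 CPM in crel-/- and 38.0, 4496 and 56.3 CPM in knock-in cells. For both guanylate-binding genes the LPS pair had the smallest of the 3 differences, and reads of near-identical Gbp copies may have been split in counting (adjusted p = 0.241 and 0.311). Whether the differences under the 3 agents differ from each other could not be tested with 1 library each.

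**Figure D4:**
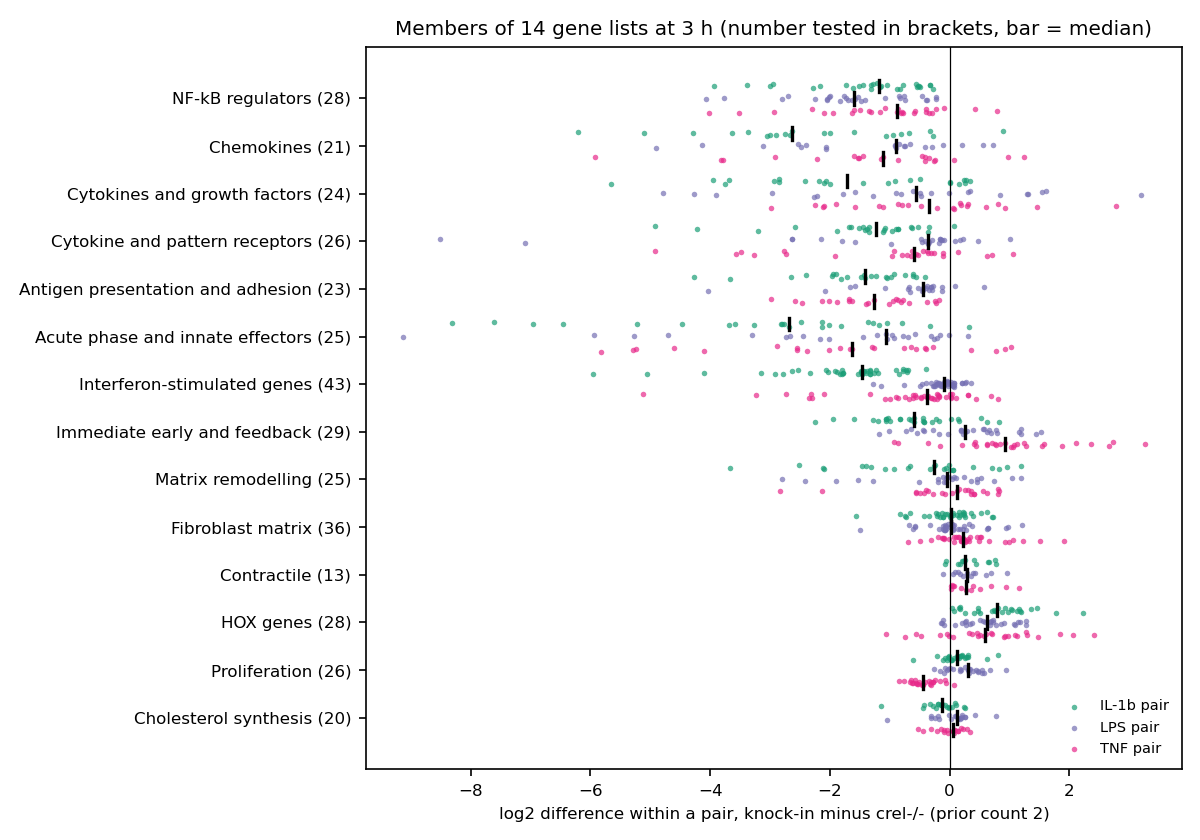
Genotype difference at 3 h within each agent pair (log2, knock-in minus crel-/-, prior count 2) for the tested members of 14 gene lists, 1 point a gene and pair, coloured by agent, with the median as a black bar and the number of members tested in brackets. NF-kB regulators lie below 0 in nearly every pair, interferon-stimulated genes below 0 in the IL-1b pair and around 0 in the LPS pair, and HOX genes mostly above 0.

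The genes higher in knock-in cells were of other kinds. Cxcr4 (chr1:128588199-128592293), the receptor of Cxcl12, was at 1.77, 1.01 and 4.62 CPM in crel-/- and at 13.6, 15.4 and 35.6 CPM in knock-in libraries, every knock-in value lying above every crel-/- value. The difference was 3.12 (SE 0.21, adjusted p = 0.00407) and was called without any 1 pair. At 0 h the genotypes were close, at 20.9 and 22.4 CPM. Each crel-/- library at 3 h lay below that level, and among the knock-in libraries those of IL-1b and LPS did.

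Kcne4, a potassium channel subunit gene, was at 1.48, 1.74 and 2.14 CPM in crel-/- and 10.9, 8.75 and 11.5 CPM in knock-in cells (log2 difference 2.55, SE 0.21, adjusted p = 0.00587), and Hlf, for a circadian bZIP factor, at 1.18, 1.59 and 0.771 CPM in crel-/- and 7.09, 4.38 and 3.74 CPM in knock-in cells (log2 difference 2.14, SE 0.30, adjusted p = 0.0232). At 0 h Kcne4 was at 10.6 CPM in crel-/- and 19.5 CPM in knock-in cells, and Hlf at 4.92 and 6.36 CPM. Gjb2, for connexin 26, was at 13.9, 11.7 and 22.3 CPM in crel-/- and 39.5, 52.6 and 72.8 CPM in knock-in cells (log2 difference 1.77, SE 0.14, adjusted p = 0.00524), and here both genotypes lay below their 3 h levels at 0 h (7.09 and 6.87 CPM). Wdfy1, an adaptor of Toll-like receptor signalling, was at 19.5, 19.1 and 10.8 CPM in crel-/- and 84.3, 84.8 and 93.0 CPM in knock-in cells (log2 difference 2.45, SE 0.23, adjusted p = 0.0126). It also differed before stimulation, with 11.1 CPM in crel-/- and 78.2 CPM in knock-in cells at 0 h.

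Adh1, an alcohol dehydrogenase gene, was higher in knock-in cells by 1.82 (SE 0.19, adjusted p = 0.0104). Pde8b, a cyclic AMP phosphodiesterase gene, was higher by 1.72 (SE 0.22, adjusted p = 0.0165), and Plcl1, a phospholipase-like gene, by 1.72 (SE 0.15, adjusted p = 0.00645). Rerg, a small GTPase gene, was higher by 1.71 (SE 0.21, adjusted p = 0.0158) and Ccdc9b by 1.64 (SE 0.20, adjusted p = 0.0151). At 0 h all 5 were already higher in the knock-in library, Adh1 at 19.0 against 6.37 CPM and Plcl1 at 70.8 against 36.3 CPM. Dmrt2 and Fgf16 were called as well (1.71 and 1.73) but overlapped between the genotypes, and Dmrt2 lost its call without any 1 pair. Of all 294 called genes that were higher, 77 kept the call and direction without the LPS pair and 31 without the TNF pair.

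Other genes had large but unequal differences between the pairs. Hbegf, an EGF receptor ligand, was at 10.4, 23.8 and 15.8 CPM in crel-/- and 13.2, 219 and 110.5 CPM in knock-in cells, far higher in the knock-in library under LPS and TNF and near equal under IL-1b (adjusted p = 0.207). Nr4a1, an immediate early nuclear receptor gene, was at 6.79, 11.4 and 12.8 CPM in crel-/- and 6.94, 25.9 and 125 CPM in knock-in cells (adjusted p = 0.342), and Pparg, a lipid-sensing nuclear receptor gene, at 5.41, 1.59 and 3.94 CPM in crel-/- and 6.78, 8.75 and 16.5 CPM in knock-in cells (adjusted p = 0.155). Rarb, a retinoic acid receptor gene, and Mn1, a transcription regulator gene, were highest in the IL-1b pair by difference (2.28, 0.87 and 0.49 and 2.19, 1.09 and 1.09), and Mn1 was called (log2 difference 1.55, SE 0.26, adjusted p = 0.0442). Fgf21, a stress-induced hormone, was called on few counts (1.44, 0.250 and 7.01 CPM in knock-in cells, adjusted p = 0.037). Ibsp, for bone sialoprotein, was at 0, 0 and 88.8 CPM in knock-in and 2.16, 0.725 and 1.03 CPM in crel-/- cells, so the knock-in TNF library alone held its high value. Acod1, which makes itaconate, was at 3.94, 1720 and 97.0 CPM in crel-/- and 0.159, 428 and 2.40 CPM in knock-in cells (adjusted p = 0.161).

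Immediate early and feedback genes were split between agents. Of 30 listed genes 29 were tested, 1 fell and 1 rose. Among all genes tested 2.77% fell and 2.21% rose, and 50.93%, 48.35% and 49.47% lay lower in the pairs. At least 2-fold higher in the TNF pair were 2.46% of all genes. In the IL-1b pair 23 of 29 were lower in the knock-in library (median -0.59), in the LPS pair 10 were (median 0.26) and in the TNF pair 4 were (median 0.92), where 14 were at least 2-fold higher. Gadd45b, a stress gene and NF-kB target, was lower in each pair (log2 difference -0.98, SE 0.08, adjusted p = 0.00566), and Klf4, a zinc finger factor gene, was higher (log2 difference 0.58, SE 0.10, adjusted p = 0.0408), a call lost without any 1 pair. Egr1 was at 87.5, 343 and 151 CPM in crel-/- and 77.9, 505 and 659 CPM in knock-in cells, and Jun at 219.5, 319 and 244 CPM in crel-/- and 180.1, 728 and 535 CPM in knock-in cells, neither passing the test (adjusted p = 0.501 and 0.426).

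Of 36 fibroblast matrix genes 4 rose and 2 fell, with a median of 0.10, against 2.21% and 2.77% of all genes tested. Thbs1, for thrombospondin 1, was at 1931, 2933 and 2581 CPM in crel-/- and 3179, 5783 and 7389 CPM in knock-in cells (log2 difference 1.07, SE 0.16, adjusted p = 0.0365), and Thbs2 at 737, 944 and 837 CPM in crel-/- and 1142, 1477 and 1752 CPM in knock-in cells (log2 difference 0.78, SE 0.11, adjusted p = 0.0219). Thy1, a fibroblast surface glycoprotein, was higher by 0.78 (SE 0.09, adjusted p = 0.0146) and Fbln2, for fibulin 2, by 0.48 (SE 0.07, adjusted p = 0.0282). All 4 were already higher in the knock-in library at 0 h. Fbln2 was then at 1404 CPM in crel-/- and 1960 CPM in knock-in cells, and Thy1 at 127 and 173 CPM. Thbs2 was at 1093 and 1528 CPM and Thbs1 at 2841 and 3439 CPM. Pdgfra, a PDGF receptor gene, differed by -0.71 (SE 0.08, adjusted p = 0.0117) and Lum, for the proteoglycan lumican, by -0.54 (SE 0.10, adjusted p = 0.042), and both fell. Of the 4 rises 3, 1 and 2 were kept without the IL-1b, LPS and TNF pair, and of the 2 falls 1, 1 and 0. Among all 13301 genes tested 2865 were higher in each pair. Of 13 contractile genes 11 were higher in each pair, with a median of 0.22, and 3 rose: Actg2 (0.73), Lmod1 (0.82) and Tagln (0.40). Without the IL-1b pair 1 of these 3 calls was kept, and without the LPS or the TNF pair none was.

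In the matrix remodelling list, 2 of 25 fell and 4 rose, with a median of -0.04, against 2.77% and 2.21% of all genes. Those that fell were the metalloproteinases Mmp9, at 38.0, 58.4 and 39.9 CPM in crel-/- and 6.46, 8.25 and 9.02 CPM in knock-in cells (log2 difference -2.50, SE 0.15, adjusted p = 0.00387), and Mmp3, at 108, 141 and 40.9 CPM in crel-/- and 8.37, 26.1 and 5.57 CPM in knock-in cells (log2 difference -2.98, SE 0.27, adjusted p = 0.0148). Adamts5 and Adamts1, which cleave proteoglycans, were higher by 0.92 (SE 0.11, adjusted p = 0.0137) and 0.86 (SE 0.13, adjusted p = 0.0292). In knock-in cells both lay below their 0 h levels (332 and 482 CPM) in each 3 h library. Plat, for tissue plasminogen activator, and Mmp11 were higher by 0.40 and 0.54. The rises of Adamts1, Plat and Mmp11 were not called in any fit with 1 pair left out. No member passed edgeR's test among 26 proliferation genes (median -0.02), 19 p53 targets (0.10) and 20 cholesterol synthesis genes (0.00). At an unadjusted p under 0.05 there were 1 lower proliferation gene, 3 lower and 2 higher p53 targets and 2 lower cholesterol genes, of which DESeq2 called 1 higher p53 target and limma-voom none. The proliferation genes were lower in the knock-in TNF library in 25 of 26 cases (median -0.44), against 49.47% of all genes. Their medians were 0.12 in the IL-1b and 0.30 in the LPS pair.

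HOX genes, which record position along the body axis, were higher in knock-in cells in 9 of 28 cases and lower in none, with a median of 0.68. Hoxb9 was at 15.2, 16.5 and 29.7 CPM in crel-/- and 33.6, 30.3 and 63.5 CPM in knock-in cells (log2 difference 1.04, SE 0.10, adjusted p = 0.00865), and Hoxc10 at 6.98, 12.2 and 8.22 CPM in crel-/- and 12.4, 20.9 and 18.2 CPM in knock-in cells (log2 difference 0.92, SE 0.14, adjusted p = 0.0282). The others were Hoxa5, Hoxb3, Hoxb4, Hoxb5, Hoxb6, Hoxc6 and Hoxc8, between 0.77 and 1.92. The list also differed before stimulation, with a median of 0.49 at 0 h, and Hoxb9 then stood at 28.7 and 43.7 CPM. None of the 9 calls was kept without the TNF pair, 1 without the LPS pair and 4 without the IL-1b pair. HOX genes overlap antisense transcripts, and how strand was set in the counting is unknown here.

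Markers of other cell types were set beside these groups. For comparison, 2.77% of all genes tested fell, and 50.93%, 48.35% and 49.47% lay lower in the knock-in library of the pairs. Of 17 macrophage markers 1 fell, Lyz2, for lysozyme, at 1282, 1346 and 2160 CPM in crel-/- and 949, 776 and 1636 CPM in knock-in cells (log2 difference -0.54, SE 0.10, adjusted p = 0.0429), a call lost without any 1 pair. In the LPS pair 16 of the 17 were lower in the knock-in library, with a median of -0.33, in the IL-1b pair 15 (-0.25), and in the TNF pair 4 (0.13). Adgre1, the F4/80 antigen gene, was at 228, 540.5 and 382 CPM in crel-/- and 239, 269 and 464 CPM in knock-in cells, and Csf1r, the CSF1 receptor gene, at 322, 326 and 644 CPM in crel-/- and 308, 195 and 580.5 CPM in knock-in cells. Macrophages also express Tlr2, Gpr84, Clec4e, Acod1 and C3. In the TNF pair the difference was -3.57 for Tlr2, -4.92 for Gpr84, -3.49 for Clec4e, -5.23 for Acod1 and -5.29 for C3. The 17 markers summed to 6026 CPM in the crel-/- and 5715 CPM in the knock-in library of that pair. Whether macrophage content played a part in these differences was not tested.

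Of 13 neural and Schwann cell markers, 3 glial genes fell, and the list's median was 0.05. Without the IL-1b, LPS and TNF pair 2, 0 and 1 of these calls were kept. Gfap was at 14.8, 9.42 and 28.9 CPM in crel-/- and 1.59, 1.125 and 10.5 CPM in knock-in cells (log2 difference -2.29, SE 0.39, adjusted p = 0.0465), Fabp7 differed by -2.15 (SE 0.27, adjusted p = 0.016) and Ncan by -2.24 (SE 0.37, adjusted p = 0.0332). All 3 were lower already at 0 h, Gfap at 54.1 against 7.21 CPM, Fabp7 at 13.8 against 3.56 CPM and Ncan at 11.4 against 2.21 CPM. The summed level of the list was 88.1, 58.3 and 127 CPM in crel-/- and 60.3, 65.7 and 127 CPM in knock-in libraries. Among cartilage and bone markers Comp fell (-1.07) and Runx2 and Sox9 rose (0.64 and 0.49), and among adipocyte markers Cebpa rose (0.63). The 3 rises were called in no fit with 1 pair left out, and Comp was called in each. No endothelial, epithelial or skeletal muscle marker passed edgeR's test, of 5, 8 and 2 tested, nor with DESeq2 or limma-voom, and 2 epithelial markers were higher at an unadjusted p under 0.05.

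The called genes were followed back to the libraries from other times, which the 3 h test did not use. As the genes were picked by their 3 h values, their 3 h medians are inflated by that choice. Setting them beside earlier medians is therefore no measure of growth over time. The 368 lower genes had a median difference of -0.08 at 0 h, and 5.16% of them were at least 2-fold lower there, against 0.767% of all genes. At 0.5 h the medians were -0.21, -0.16 and -0.15, and at 1 h they were -0.46, -0.27 and -0.42, compared with -0.98, -0.98 and -1.002 at 3 h. At least 2-fold lower at 1 h were 29.1%, 17.4% and 25.8% of them, against 2.65%, 1.96% and 2.14% of all genes. The 294 higher genes had a median of 0.28 at 0 h, 0.23 to 0.25 at 0.5 h and 0.33, 0.25 and 0.34 at 1 h, against 0.77, 0.70 and 0.78 at 3 h, and 83.3% of them were already on the higher side at 0 h, against 51.4% of all genes.

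Whether the 3 h difference was itself larger or smaller than that at 0.5 and 1 h was tested over the 18 stimulated libraries. Of 13965 genes, 320 had a lower (2.29%) and 362 a higher (2.59%) knock-in minus crel-/- difference at 3 h than earlier. Of the 10 described in this and the next paragraph, 6 lost the call without the LPS libraries, 5 without TNF and 3 without IL-1b. Without a filter on low counts 3 lost it, and with DESeq2 1. Nr3c2, the mineralocorticoid receptor gene, was at 52.8, 62.2 and 37.1 CPM in crel-/- and 2.55, 6.88 and 2.30 CPM in knock-in cells at 3 h, whereas both genotypes lay between 5.51 and 9.50 CPM at 0, 0.5 and 1 h. Its change was -3.56 (SE 0.24, adjusted p = 3.12e-05). Steap4 changed by -2.51 (SE 0.41, adjusted p = 0.0117), C3 by -2.62 (SE 0.30, adjusted p = 0.00136), Lbp, for the LPS-binding protein, by -2.82 (SE 0.62, adjusted p = 0.0384) and Tmem132e by -2.18 (SE 0.47, adjusted p = 0.02). For C3 the earlier differences were already below 0 at each time, and the gap widened.

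In the other direction Cxcr4 changed by 2.74 (SE 0.30, adjusted p = 0.000863), its level being nearly equal between genotypes at 0.5 h under every agent. Hlf changed by 1.601 (SE 0.37, adjusted p = 0.0257), Stc1, for the hormone stanniocalcin 1, by 1.55 (SE 0.28, adjusted p = 0.0106) and Prokr1, a prokineticin receptor gene, by 1.63 (SE 0.35, adjusted p = 0.0242). Stc1 and Prokr1 were not called in edgeR's genotype test at 3 h (adjusted p = 0.0757 and 0.198). Prokr1 differed by 1.76, -0.11 and 0.75 in the pairs at 3 h, and lay below 0 in each pair at 0.5 and 1 h. Sele, for the endothelial adhesion molecule E-selectin, changed by 2.59 (SE 0.62, adjusted p = 0.0469), but its 3 h difference stayed below 0 in each pair (-4.28, -1.67 and -0.69). At 1 h crel-/- cells were at 24.1, 3.12 and 22.9 CPM of Sele and knock-in cells at 1.16, 0.428 and 0.927 CPM. At 3 h they stood at 4.92, 24.2 and 7.37 CPM in crel-/- and 0.0797, 7.50 and 4.51 CPM in knock-in cells, so the gap was narrower under TNF and LPS and like that at 1 h under IL-1b.

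**Figure D5:**
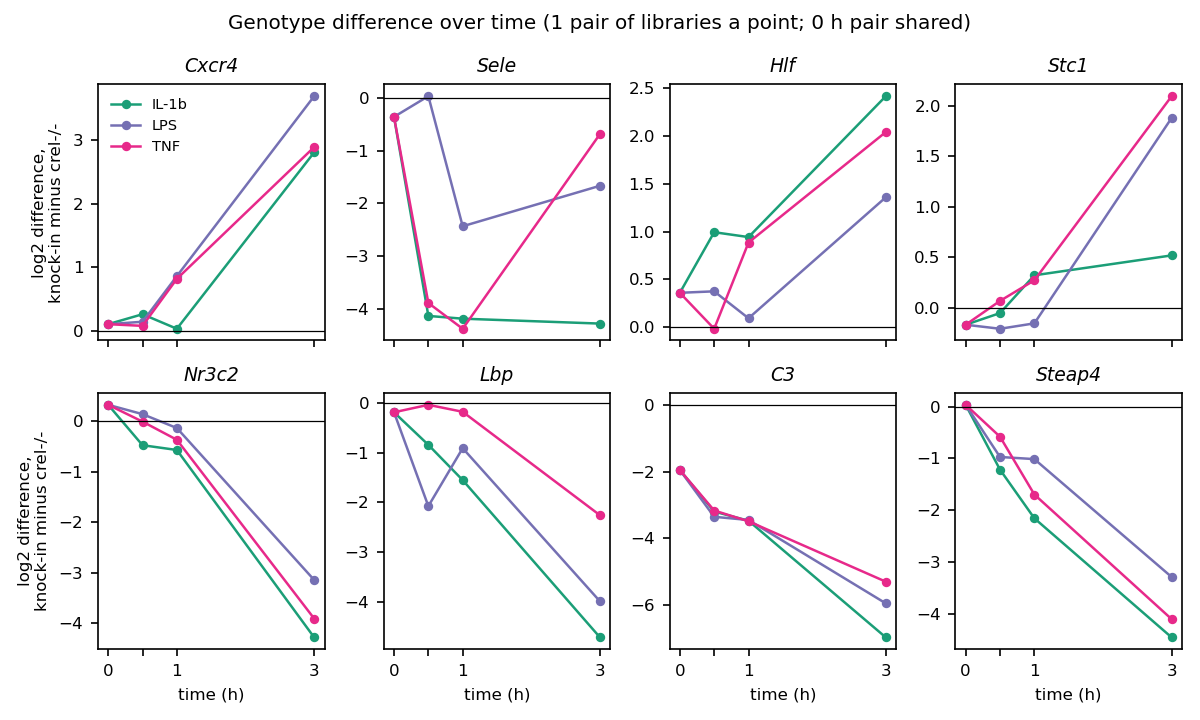
Genotype difference (log2, knock-in minus crel-/-, prior count 2) at 0, 0.5, 1 and 3 h for 8 genes of the test of 3 h against earlier times, 1 line an agent and 1 pair of libraries a point, the 0 h pair being shared by all agents. Cxcr4, Hlf and Stc1 part upwards and Nr3c2, Lbp, C3 and Steap4 downwards by 3 h, and Sele returns toward 0 under TNF.

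Tnfaip3 shows the course of an early target. In crel-/- cells it was at 670, 218 and 643 CPM at 0.5 h and at 281, 521 and 310 CPM at 1 h, while knock-in cells held 9.64, 8.79 and 13.9 CPM and then 14.8, 20.4 and 20.1 CPM. By 3 h the knock-in levels were 11.5, 184 and 31.7 CPM, and the late change of 1.97 (SE 0.46, adjusted p = 0.0592) did not pass the threshold. Nfkbia changed by 1.36 (SE 0.33, adjusted p = 0.0692). Of the 28 NF-kB regulators the late test called 3 lower, Cyld, Irak3 and Tnip1, and none higher. Of the 25 acute phase genes tested it called 6 lower and none higher. Over all 13965 genes of the late test, 2.29% were called lower and 2.59% higher.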

How the data were processed

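PolyA RNA of cultured mouse embryonic fibroblasts was read single-end from stranded libraries, per the labels' protocols. Unnormalized whole-number gene counts for the 20 libraries were deposited by the authors in 1 table. Cutadapt 1.12, STAR, featureCounts 1.5.1, DESeq2 and build mm10 are named in the submitters' processing notes. Neither the annotation release nor the strand and multiple-match settings of the counting are known here. Of 45706 genes, 98.8% matched a symbol.

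A gene was tested if 2 or more of the 6 libraries reached 1 CPM, which left 13301 genes holding 99.9% of the counts. CPM are scaled by TMM factors computed over the 20 libraries. The genotype difference came from edgeR 4.0.16 (glmQLFit with robust estimation, R 4.3.3) with terms for agent and genotype, so each agent pair served as a block (2 residual degrees of freedom, common biological coefficient of variation 13.3%). P-values were adjusted by Benjamini-Hochberg, with 0.05 as the threshold. The pairing comes from the design, as both libraries of a pair had the same agent and time. The test of 3 h against 0.5 and 1 h used the 18 stimulated libraries with condition, genotype and genotype at 3 h (7 residual degrees of freedom). Standard errors (SE) are the size of the fitted log2 difference over the square root of F. Differences within pairs were taken on log2 CPM after a prior count of 2 was added. Genes with 0 counts in a group are given against a floor of 3 counts, and with 1 to 3 counts as a ratio with its 95% interval. Both cover counting error only, as molecules were not tagged.

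Members and gene lists were chosen with earlier results of these data known. The rule for named genes asked for at least 5 CPM in the higher genotype. It took the 10 called genes in each direction with the largest difference and the same sign in all 3 pairs, and the 10 in each direction past 2-fold in all 3 pairs whose smallest difference was largest. It added 5 genes a direction from each pair and from the test of 3 h against earlier times, the called members of each list or else up to 4, and Rel and Rela. Adgre1, Ccl2, Csf1r, Cxcl10, Cxcl2, Egr1, Ifit1, Il1b, Il6, Jun, Nfkbid, Nfkbiz, Ripk2 and Tnf, and the genes of the closing section outside the rule, were chosen after their values were seen. The scripts were tested on simulated data. Alternatives were DESeq2 1.42.0, limma-voom (limma 3.58.1), relative log expression scaling, other filters, prior counts and folds, all 20 libraries, no block and leaving out each pair. Promoters are from RefSeq. Of the 17 genes with opposite differences between pairs, 1 is not reported here.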

Additional observations from a re-analysis of the deposited data

Results flagged for a closer look

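The genotype difference at 3 h was tested against that at 0.5 and 1 h over the 18 stimulated libraries, by edgeR's quasi-likelihood test. It departed downwards in 320 genes and upwards in 362. The 10 given here had the largest changes, 5 in each direction, among genes of at least 5 CPM in the higher genotype. The change was 2.74 for Cxcr4, 2.59 for Sele, 1.63 for Prokr1, 1.601 for Hlf and 1.55 for Stc1 on the log2 scale. It was -3.56 for Nr3c2, -2.82 for Lbp, -2.62 for C3, -2.51 for Steap4 and -2.18 for Tmem132e.

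For 16 genes reported here, the knock-in library was at least 2-fold higher in 1 agent pair and at least 2-fold lower in another. Each had a mean of at least 5 CPM in the higher genotype, but some libraries held few counts. In the IL-1b pair Dusp2 had 16 counts in crel-/- and 5 in knock-in cells, Pou3f1 13 and 4, and Ccr3 18 and 7. With 1 library a condition this difference between pairs was not tested. Several of the 16 genes were immediate early or feedback genes. Egr3, an immediate early factor gene, was -1.28, -0.73 and 2.74 in the IL-1b, LPS and TNF pairs, a span of 4.02, and Dusp6, a phosphatase of ERK, -1.22, 0.78 and 1.18, a span of 2.40. Errfi1, an inhibitor of the EGF receptor, spanned 2.84, Dusp2 2.62, Trib1 2.83, Myc 2.59 and Nr4a3 2.24. In Egr3, Dusp6, Errfi1, Dusp2, Trib1 and Myc the IL-1b pair had the lowest value.

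The chemokine receptor genes Ccr1 and Ccr3 spanned 4.20 and 4.46, both highest in the TNF pair. Il21r, the interleukin 21 receptor gene, was at 19.0, 1.16 and 15.2 CPM in crel-/- and 7.09, 9.63 and 8.54 CPM in knock-in cells, a span of 4.27. The crel-/- LPS library held the lowest level.

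The other genes were Adam8 (span 2.12), Serpinb1a (3.06), Chd7 (2.78), Pou3f1 (3.11) and Hoxd12 (2.22). Ibsp had the widest span, 9.88, with 0, 0 and 88.8 CPM in knock-in cells, the TNF library standing alone.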

How the results depend on the processing

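The numbers of genes called lower and higher were 368 and 294 in the fit as reported. They were 516 and 305 with DESeq2, 408 and 301 with limma-voom and 388 and 296 with relative log expression scaling. Without a filter on low counts they were 623 and 570, with a stricter filter (at least 5 CPM in at least 3 libraries) 253 and 191, and in a fit over all 20 libraries 1171 and 1150. Without the replicate block, that is without pairing by agent, edgeR called 3 lower and 0 higher. Leaving out 1 pair gave 125 to 354 lower and 35 to 289 higher genes, fewest without the TNF pair, and each such fit had 1 residual degree of freedom. For the change between earlier times and 3 h, 320 and 362 genes became 122 to 262 and 87 to 292 without the libraries of 1 agent, fewest without LPS. With a threshold of 1.5-fold in place of 2-fold, the lower and higher counts were 1193 and 1063 in the IL-1b pair, 1201 and 1175 in the LPS pair, 1208 and 912 in the TNF pair, and 376 and 219 in all 3. With the stricter filter, fewer genes being tested, they were 292 and 162 in the LPS pair, 272 and 148 in the TNF pair and 106 and 18 in common, and 128 genes were higher in the IL-1b pair. The cause of the other moves was not tested. Of the 106 named genes called over the 3 pairs, 6 lost the call with DESeq2, 5 with limma-voom, 2 in the fit over all libraries and none with the other scaling. Without the IL-1b pair 32 of the 104 still tested lost it, without the LPS pair 45 of 101 and without the TNF pair 63 of 104. No named difference past the threshold reversed under these alternatives.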

Other observations

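Some gene families, which may share members with the lists, also held calls. The 7 families given here were picked after their values were seen, with no test of the group. Of all genes tested, 2.21% were called higher and 2.77% lower. Among 15 cyclic nucleotide phosphodiesterase genes, whose products break down cyclic AMP or cyclic GMP, 4 were higher in knock-in cells and 1 was lower. Pde10a was at 13.8, 15.9 and 12.3 CPM in crel-/- and 30.6, 32.1 and 30.4 CPM in knock-in cells (log2 difference 1.16, SE 0.11, adjusted p = 0.00866), and Pde4d at 11.4, 11.7 and 12.5 CPM in crel-/- and 28.9, 18.4 and 23.4 CPM in knock-in cells (log2 difference 0.98, SE 0.16, adjusted p = 0.0331). Pde7b and Pde8b were the other higher ones, and Pde4b was the lower one, at 37.5, 164 and 52.0 CPM in crel-/- and 20.3, 89.5 and 41.4 CPM in knock-in cells (log2 difference -0.69, SE 0.13, adjusted p = 0.0448). Further families were 37 collagens (0 higher and 2 lower), 36 potassium channel genes (2 and 3), 19 semaphorins (2 and 1) and 8 frizzled receptors (1 and 1). Among 40 interleukin and TNF receptor genes 0 were higher and 2 lower, Il12rb1 and Tnfrsf14. That count leaves out Fas, Cd40 and Il6st, which were called lower above. Of 224 solute carrier genes 13 were lower and 7 higher. Slc7a2, which brings arginine into the cell, was at 632, 875 and 260.3 CPM in crel-/- and 135, 245 and 78.3 CPM in knock-in cells (log2 difference -1.93, SE 0.11, adjusted p = 0.00355), and Slc2a6, a hexose transporter gene, at 19.3, 146 and 40.7 CPM in crel-/- and 4.15, 11.2 and 3.55 CPM in knock-in cells (log2 difference -3.21, SE 0.32, adjusted p = 0.0178). Slc40a1, for the iron exporter ferroportin, was higher, at 17.5, 12.0 and 19.4 CPM in crel-/- and 41.6, 23.3 and 34.3 CPM in knock-in cells (log2 difference 1.01, SE 0.12, adjusted p = 0.0151).

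Single genes of signalling between cells were higher as well. Lgr5, a receptor for R-spondins, was at 45.1, 48.4 and 51.2 CPM in crel-/- and 121, 106 and 151 CPM in knock-in cells (log2 difference 1.38, SE 0.10, adjusted p = 0.00496), after 53.6 and 116 CPM at 0 h. Hes1, a target of Notch signalling, was at 7.08, 33.6 and 14.04 CPM in crel-/- and 24.7, 74.2 and 40.6 CPM in knock-in cells (log2 difference 1.46, SE 0.14, adjusted p = 0.00893), and Inhbb, an activin subunit gene, at 9.35, 15.1 and 14.6 CPM in crel-/- and 24.0, 42.8 and 31.1 CPM in knock-in cells (log2 difference 1.31, SE 0.12, adjusted p = 0.00854). Zbtb7c, a zinc finger gene, was lower to a like extent in every pair, at 62.6, 81.4 and 89.0 CPM in crel-/- and 9.09, 9.50 and 11.7 CPM in knock-in cells (log2 difference -2.93, SE 0.10, adjusted p = 0.000653), with 3.79 and 4.16 CPM at 0 h. Enpp2, for autotaxin, was at 143, 147 and 176 CPM in crel-/- and 47.2, 54.0 and 61.6 CPM in knock-in cells (log2 difference -1.52, SE 0.07, adjusted p = 0.00255) and also lower at 0 h, at 60.7 against 105 CPM. Stat5a, a cytokine-activated transcription factor gene, differed by -1.43 (SE 0.10, adjusted p = 0.00423).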
